A study of Mus musculus with 36 samples.

Results

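Transcription factor genes that build the bipotential gonad, or that mark its Sertoli cells, were followed in control and miR-17~92 knockout (KO) mouse gonads of both sexes. The 10 members were taken by name from the count tables of both stages, namely Sox9, Sox8, Sox10, Dmrt1, Nr0b1, Lhx9, Lhx2, Emx2, Tcf21 and Nr2f2. All 10 were found among the 21699 genes listed, and all 10 passed the filter on low counts at each stage. The names came from what is known of the pathway, and the rule itself used no measured value. The members were, however, chosen with earlier results of these data known.

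RNA was sequenced from 24 libraries, 3 for each of 4 genotypes at 2 stages named by embryonic day, E11.5 and E12.5. The 4 genotypes were XY control, XY KO, XX control and XX KO. KO embryos were homozygous for the deleted miR-17~92 allele (del/del) and carried the transgene Tg(CAG-cre)1Nagy, whose broadly active CAG promoter drives Cre recombinase throughout the embryo; the floxed allele came from a C57BL/6 × 129S4/SvJae background. The labels call the KO embryos MiRC1 mutants and the controls WT, and the sources used here do not say which controls carried Cre or a floxed allele. Each library pooled 2 pairs of gonads. At E11.5 the gonad was dissected along with the mesonephros, the transient kidney beside it, whereas at E12.5 isolated gonads were used with another library kit, so that no value was compared between stages.

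The early gonad forms as a thickening of the coelomic epithelium, the genital ridge, and is the same in both sexes until Sry is expressed in XY supporting cells. EMX2, LHX9 and LHX2 are homeodomain factors of the ridge and its surface epithelium. SRY and NR5A1 (also called SF1) then switch on Sox9, whose product directs Sertoli cell differentiation. SOX8 and SOX10 belong with SOX9 to the SoxE group, which bind related DNA sequences. DMRT1 is a DM domain factor of germ cells and supporting cells, and NR0B1 (DAX1) is an X-linked nuclear receptor that opposes SF1. TCF21, a basic helix-loop-helix factor, and NR2F2 (COUP-TFII), an orphan nuclear receptor, are found mainly in mesenchymal and interstitial cells.

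The cluster encodes 6 microRNAs that matter here through 4 seeds, bases 2 to 8 of the mature strand, which pair with 3′ UTRs. Their mature sequences (RefSeq, GRCm38.p6, chromosome 14, plus strand) are shown to relate the deleted molecules to the members, with the seed in capitals. miR-17-5p and miR-20a-5p share the first seed, miR-19a-3p and miR-19b-3p share another.
miR-17-5p: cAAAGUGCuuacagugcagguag
miR-20a-5p: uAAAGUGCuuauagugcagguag
miR-18a-5p: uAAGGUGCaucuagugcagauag
miR-19a-3p: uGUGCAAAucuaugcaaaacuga
miR-19b-3p: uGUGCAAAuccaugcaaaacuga
miR-92a-3p: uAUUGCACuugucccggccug

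A match to bases 2 to 8 (GCACTTT for miR-17-5p and miR-20a-5p, GCACCTT for miR-18a-5p, TTTGCAC for miR-19a-3p and miR-19b-3p, GTGCAAT for miR-92a-3p) was found in the longest annotated 3′ UTR of 2 of the 10 members, Lhx9 and Emx2. Among 21021 protein-coding genes with a 3′ UTR in GENCODE M21, 28.8% held at least 1 such match. Lhx9 held 3 matches for the miR-17-5p seed in a 3′ UTR of 3468 bases. Over 3′ UTRs of all lengths 11.8% of genes held at least 1 match for that seed, and the share with 3 is not given here. Emx2 held 1 match for the miR-19 seed, which 2409 of those genes hold, in 1370 bases. No match was followed by the A that makes an 8-base site. The 4 sites are printed in the sense of the transcript with the match in capitals (GRCm38; Lhx9 on the minus strand, Emx2 on the plus strand).
Lhx9, chr1:138828088-138828116: aggctctgcatGCACTTTtgcatctaaca
Lhx9, chr1:138826844-138826872: atttgaaacagGCACTTTtttttttttta
Lhx9, chr1:138826751-138826779: gaaggcccaacGCACTTTtctatcatgta
Emx2, chr19:59464533-59464561: ggacttttaatTTTGCACttcacagtgtt

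In the 3′ UTRs of Sox9 (2250 bases), Nr2f2 (2713 bases), Sox8, Sox10, Dmrt1, Nr0b1, Lhx2 and Tcf21 these letters did not occur. Such a match is a property of the sequence and not a measured site.

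Libraries held between 17150620 and 34077443 counts at E11.5 and between 11877379 and 44155275 at E12.5. Ddx3y, a Y-linked gene, was at least 100.3 CPM (a gene's count scaled to the library's total) in every XY library and at most 0.369 CPM in every XX library. Xist, the X-inactivation RNA, was at least 1340.4 CPM in every XX library and at most 4.72 CPM in every XY library, so that both followed the labelled sex. Mir17hg, the host transcript of the cluster, had more counts in KO libraries (66.7 to 154 CPM) than in control libraries (13.4 to 44.6 CPM). A gene-level count includes parts of Mir17hg outside the deleted stretch, so it does not check the deletion. Labels give no litter, day or batch, so p-values measure the spread between these pools of embryos. Differences were tested with edgeR's quasi-likelihood test over all genes at a stage, with 1 model for the 4 genotypes, and were called at a Benjamini-Hochberg adjusted p (FDR) under 0.05. In whole gonads, and in gonads with mesonephros at E11.5, fewer cells of a type and less RNA per cell cannot be told apart. The authors report smaller gonads in KO embryos of both sexes than in controls at E11.5. Whether the share of gonad beside mesonephros differed between the E11.5 libraries was not tested.

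Levels can be compared between genes only per transcript length, here as CPM per kilobase of merged exons, mean ± SD of 3 libraries. In XY control gonads at E12.5 Tcf21 stood first at 95.5 ± 1.87 CPM per kilobase. Nr2f2 followed at 35.6 ± 5.28, Sox9 at 31.4 ± 3.14, Emx2 at 29.4 ± 5.90, Lhx9 at 24.3 ± 3.47 and Dmrt1 at 22.7 ± 1.09, and the library ranges of neighbours in this order overlapped. Sox8 (12.7 ± 1.58), Sox10 (8.68 ± 1.86) and Nr0b1 (6.39 ± 1.42) were lower, and Lhx2 was last at 0.122 ± 0.0350. Sox8 and Sox10 libraries did not overlap, while Sox10 overlapped with Nr0b1. In the other three genotypes Emx2 stood first, with means between 86.0 and 99.7 CPM per kilobase, and Sox9 was seventh, between 1.57 and 3.96. At E11.5 Emx2, Tcf21 and Nr2f2 held the first 3 places in all 4 genotypes, at 58.4 to 109.2 CPM per kilobase, and Lhx2 the last.

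The first comparison asked how the members changed when XY gonads lacked the cluster. At E11.5, 5 of the 10 members were called in XY KO against XY control gonads, with Sox9, Sox8, Dmrt1 and Nr0b1 lower and Tcf21 higher. Of all 14217 genes tested, 12.7% were called in that comparison, 5.88% higher and 6.81% lower. At E12.5, 8 of 10 were called against 20.6% of 14348 genes. Sox10, Sox8, Sox9, Dmrt1 and Tcf21 were lower and Emx2, Lhx2 and Lhx9 were higher, while 10.3% of all genes were called in each direction. With any 1 of the 6 XY libraries left out, the count of members was 2 to 4 at E11.5 and 6 to 7 at E12.5. Over the 10 members the median log2 fold change was -0.27 at the earlier and -0.41 at the later stage, against -0.03 and -0.01 over all genes tested. Libraries of the 2 groups did not overlap for 7 members at E11.5 (28.5% of all genes) and for 8 at E12.5 (39.1%).

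In XX gonads the deletion went with fewer calls. At E11.5, 2 members were called (Tcf21 higher, Dmrt1 lower; 3.27% of all genes). At E12.5 edgeR called 1 member, Tcf21, which was higher (5.26% of all genes). DESeq2 also called Lhx9, lower, and no member was called from these 6 libraries alone or without some single libraries. The members' median was 0.09 at the earlier and -0.03 at the later stage. The difference between the changes in XY and XX gonads was itself tested. By edgeR no member was called at E11.5 (0.0352% of all genes). At E12.5, 6 were called (12.9%), namely Sox9, Sox8, Sox10, Tcf21, Lhx9 and Emx2. At E11.5, 3 members had an unadjusted p under 0.05 in edgeR, beside 1825 of all 14217 genes. DESeq2 called 1 at E11.5, and its share over all genes is not given here.

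**Figure D1:**
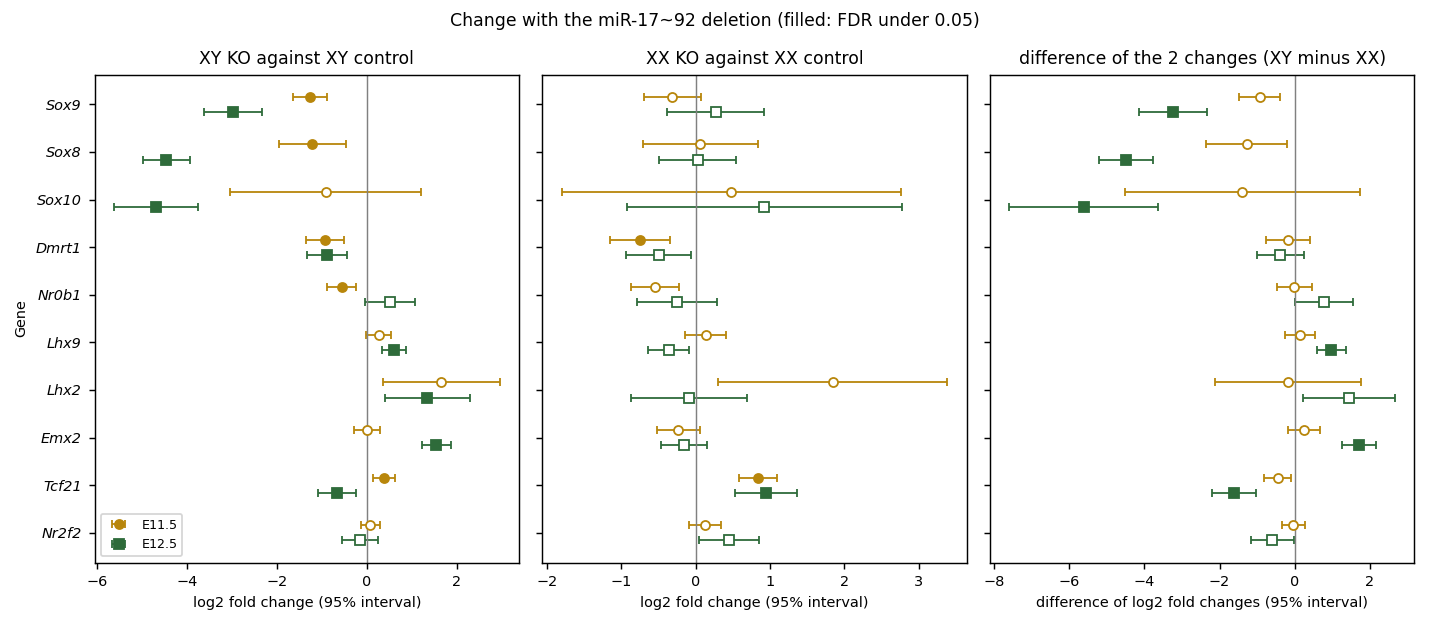
Log2 fold change of each member in XY KO against XY control gonads, in XX KO against XX control gonads, and the difference of both changes, at E11.5 (circles) and E12.5 (squares). Bars are 95% intervals of the edgeR fit with 3 libraries a group, and filled symbols mark FDR under 0.05; the SoxE genes at E12.5 lie between -4.69 and -2.98 in XY and between 0.03 and 0.92 in XX gonads.

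The third comparison set the control sexes side by side. At E11.5 edgeR called 1 member, Sox9, lower in XX than in XY control gonads (0.886% of all genes were called). DESeq2 called 3, with Sox8 (FDR 0.00755) and Tcf21 (FDR 0.0227) also lower in XX, and a fit of these 6 libraries alone called Sox9, Sox8 and Sox10. For DESeq2 and for that fit the share of all genes called is not given here. The count ranged from 1 to 4 without 1 library. The libraries of the control sexes did not overlap for 9 members (17.4% of all genes). At E12.5, 9 members were called, all but Dmrt1, against 23.8% of all genes. Sox10, Sox8, Sox9, Tcf21 and Nr2f2 were lower in XX control gonads, and Lhx2, Emx2, Lhx9 and Nr0b1 were higher. The comparisons within XY and between control sexes share the XY control libraries, so their values are given side by side and no overlap between them is read.

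Sox9, which drives Sertoli cell differentiation, was measured at 55.0, 76.3 and 65.5 CPM in XY control gonads at E11.5 and at 27.4, 33.6 and 21.6 CPM in XY KO gonads. XX control libraries gave 33.4, 28.9 and 21.5 CPM, and XX KO libraries 24.1, 19.6 and 23.5 CPM. Every XY control library thus stood above the 9 others, which overlapped with each other. The XY KO level was 2.38-fold lower than that of XY controls (log2 fold change -1.25 ± 0.18 SE, FDR 0.000761), and Sox9 remained called without any 1 of the 6 libraries. Between XY KO and XX control gonads the difference was -0.02, with a 95% interval from -0.40 to 0.36. In XX gonads the change was -0.32 ± 0.18 (FDR 0.44). The difference between the changes in XY and XX gonads was -0.93 ± 0.25, with FDR 0.203 in edgeR and 0.0423 in DESeq2.

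At E12.5 Sox9 stood at 129.7, 143 and 117 CPM in XY control gonads and at 9.12, 18.7 and 21.3 CPM in XY KO gonads, 7.89-fold lower (log2 -2.98 ± 0.30, FDR 5.72e-06). XX control libraries held 7.48, 4.84 and 7.13 CPM and XX KO libraries 4.77, 10.1 and 8.39 CPM. All 3 XY KO libraries were above all 3 XX control libraries, and the fit gave a 2.55-fold higher level in XY KO than in XX control gonads (log2 1.35 ± 0.31, FDR 0.0238). That call was lost without XX control replicate 1 or 2 or XY KO replicate 2 or 3, with FDR up to 0.118. The lowest XY KO library (9.12 CPM) lay within the XX KO range, and XX KO against XY KO gave -1.08 ± 0.29 with FDR 0.235 (0.0416 in DESeq2). Between the control sexes Sox9 was 20.1-fold lower in XX gonads.

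Sox8, a SoxE gene that acts beside Sox9 in Sertoli cells, read 7.12, 7.22 and 9.44 CPM in XY control gonads at E11.5 and 3.96, 3.02 and 3.23 CPM in XY KO gonads. The groups did not overlap, and the change was -1.21 ± 0.35 (FDR 0.0359). It was kept without XY control replicate 2, and was lost without any other one of the 6 libraries (FDR up to 0.117). XX KO libraries spanned 1.66 to 5.35 CPM, with the highest in replicate 1, and XX control libraries 1.95 to 4.07 CPM. At E12.5 Sox8 fell from 42.5, 42.4 and 33.9 CPM in XY control gonads to 1.46, 1.75 and 2.07 CPM in XY KO gonads (log2 -4.46 ± 0.24, FDR 1.6e-08). XX control and XX KO gonads held 1.25 to 2.53 and 2.07 to 2.26 CPM. XY KO overlapped with XX control gonads, with a difference of -0.24 and a 95% interval from -0.78 to 0.30.

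Sox10, known in neural crest and glia and also made by Sertoli cells, was spread widely among the XX KO libraries at E11.5. XY control libraries held 11.6, 10.1 and 11.7 CPM, XY KO libraries 7.63, 3.02 and 6.97 CPM, and XX control libraries 3.60, 3.48 and 1.21 CPM. XX KO libraries held 10.5, 0.425 and 0.553 CPM, so that replicate 1 stood near the XY controls and the other two below every other library. XY KO lay below XY control in all libraries, without a call (log2 -0.92 ± 0.94, FDR 0.56). In XX KO against XX control gonads the fit gave 0.48 ± 1.01 (FDR 0.915). Without XX KO replicate 1 the same contrast was -2.51 ± 0.54 (FDR 0.0308), and XX KO against XY KO moved from -0.60 to -3.58 (FDR 0.0111). Both values rest on XX KO replicates 2 and 3, with 10 and 12 reads of Sox10.

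Neural crest and glial genes also differed between these libraries, though not all alike. The summed level of the 7 listed genes (Foxd3, Erbb3, S100b, Ednrb, Fabp7, Tfap2b and Mbp) was 93.7 CPM in XX KO replicate 1 and 61.1 and 55.5 CPM in replicates 2 and 3. It ranged from 76.4 to 82.4 CPM in XX control, 60.5 to 76.7 CPM in XY KO and 77.3 to 97.8 CPM in XY control gonads, so that XX KO replicate 1 stood above every library but 1 XY control. Single genes did not all follow the sum. In XX KO replicates 1, 2 and 3 Ednrb read 43.3, 19.5 and 27.1 CPM and Tfap2b 9.99, 4.04 and 1.75 CPM. Fabp7 read 2.89, 1.15 and 0.738 CPM there and Erbb3 19.5, 18.4 and 11.6 CPM. Mbp read 17.1, 17.8 and 13.8 CPM and S100b 0.117, 0.0425 and 0.231 CPM. The defining marker Foxd3 read 0.859 CPM in XX KO replicate 1 and 0.085 and 0.277 CPM in replicates 2 and 3. It read 1.34, 0.292 and 0.368 CPM in XX control and 1.19, 0.818 and 0.949 CPM in XY control gonads. XY KO libraries held 0.815, 0.974 and 0.564 CPM. The highest Foxd3 level was thus in XX control replicate 1, where Sox10 was 3.60 CPM. None of the 6 listed genes tested was called at E11.5 in either KO comparison by edgeR (2 in XY and 1 in XX gonads at an unadjusted p under 0.05, and 1 and 0 by DESeq2). The part of these cells in the Sox10 values was not tested.

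**Figure D2:**
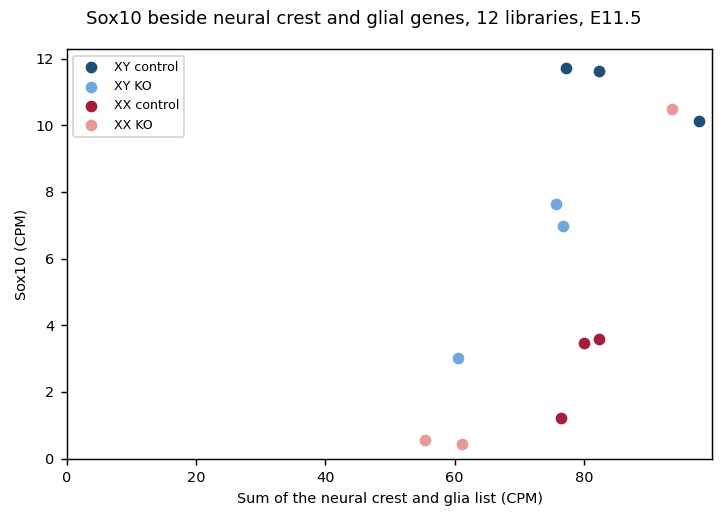
Sox10 (vertical axis, CPM) against the summed level of the neural crest and glia list (horizontal axis, CPM) in the 12 libraries at E11.5, coloured by genotype. XX KO replicate 1, at 10.5 CPM of Sox10, has a list sum of 93.7 CPM, below only 1 XY control library at 97.8 CPM, while the other XX KO libraries are at 61.1 and 55.5 CPM.

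At E12.5 Sox10 was at 25.0, 32.7 and 21.6 CPM in XY control gonads and at 0.468, 1.28 and 1.26 CPM in XY KO gonads, 25.7-fold lower (log2 -4.69 ± 0.44, FDR 2.74e-06). XX control libraries held 5, 0 and 1 reads of Sox10 and XX KO libraries 8, 13 and 1 reads, at most 0.294 CPM. XY KO libraries, with 8, 19 and 46 reads, were all above both XX groups. XY KO against XX control was called (log2 3.18 ± 0.71, FDR 0.0223), resting on these few reads. It was lost without XX control replicate 2 or 3 or XY KO replicate 2 or 3 (FDR up to 0.0977). XX KO against XY KO gave -2.26 ± 0.55, with FDR 0.235 in edgeR and 0.000647 in DESeq2. Of 5 tested genes of the neural crest list, 3 were called in XY KO against XY control gonads, Erbb3 (-2.63) and Mbp (-0.59) lower and Ednrb (0.78) higher, with a list median of -0.08. Erbb3 was 69.1, 54.5 and 56.0 CPM in XY control and 8.30, 9.31 and 11.3 CPM in XY KO gonads, while Foxd3 did not pass the filter.

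**Figure D3:**
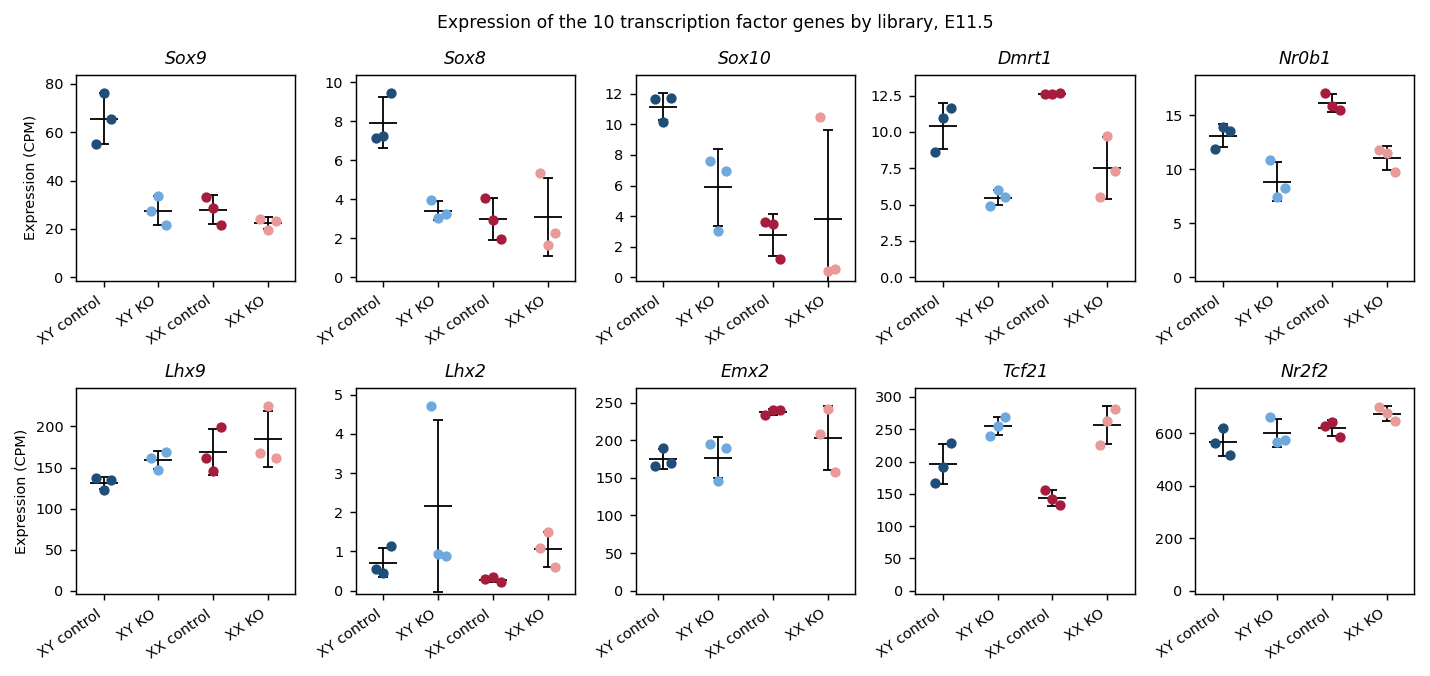
CPM of each member (vertical axes, from 0) in the 3 libraries of each genotype at E11.5, with mean and SD. Sox9 and Sox8 are highest in XY control gonads, and 1 XX KO library of Sox10 (10.5 CPM) and 1 XY KO library of Lhx2 (4.70 CPM) stand apart from their groups.

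**Figure D4:**
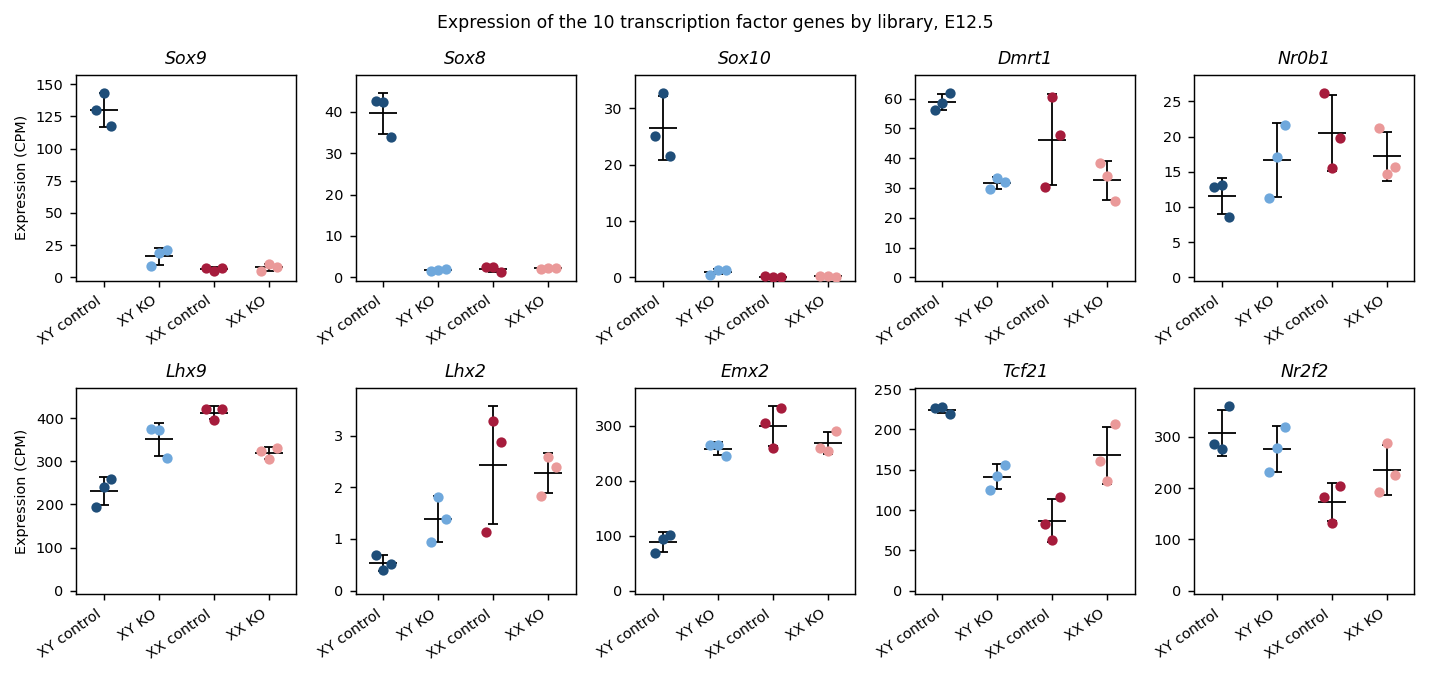
CPM of each member (vertical axes, from 0) in the 3 libraries of each genotype at E12.5, with mean and SD. The SoxE genes are high in XY control gonads alone, whereas Emx2 and Lhx9 are lowest there (Emx2 mean 88.2 CPM against 258 to 299 CPM elsewhere).

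Dmrt1, which maintains male fate in the later testis and is also made by germ cells, was lower in KO gonads of both sexes at E11.5. XY controls had 8.64, 10.9 and 11.7 CPM and XY KO gonads 4.93, 5.997 and 5.54 CPM (log2 -0.93 ± 0.20, FDR 0.00742, called without any 1 library). XX controls had 12.6, 12.6 and 12.7 CPM and XX KO gonads 5.50, 9.73 and 7.29 CPM (-0.75 ± 0.19, FDR 0.0444). The groups did not overlap in either sex. The XX call was kept without XX KO replicate 2 and lost without any other one of the 6 libraries, with FDR up to 0.149, and in these 6 libraries alone (FDR 0.0582). The 2 changes differed by -0.18 ± 0.27. At E12.5 XY control gonads held 56.3, 58.4 and 61.9 CPM and XY KO gonads 29.6, 33.5 and 32.1 CPM, 1.85-fold lower (-0.89 ± 0.21, FDR 0.00655). XX control libraries were spread from 30.2 to 60.6 CPM and XX KO libraries from 25.6 to 38.5 CPM, with a change of -0.50 ± 0.21 (FDR 0.163). Dmrt1 was the 1 member not called between the control sexes at E12.5 (-0.35, 95% interval -0.79 to 0.09).

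Germ cell genes stood beside these values. The summed germ cell list was 85.7 to 150.4 CPM in XY control, 72.5 to 102.7 CPM in XY KO, 94.7 to 271.5 CPM in XX control and 52.5 to 147.3 CPM in XX KO gonads at E11.5, and none of its 10 tested genes was called in either KO comparison by edgeR (2 in XY and 4 in XX gonads at an unadjusted p under 0.05, and 0 and 1 by DESeq2). The list median was -0.52 in XY and -0.95 in XX gonads. At E12.5, 4 of 12 were called in XY KO against XY control gonads, Stra8 higher and Nanos2, Dppa3 and Pou5f1 lower. In XX KO against XX control gonads 3 of 12 were called, all lower, namely Sox2 (-1.26), Tfap2c (-1.23) and Pou5f1. Pou5f1, a pluripotency factor kept in early germ cells, changed by -0.81 in XY and by -0.91 in XX gonads, both called. The list median at E12.5 was -0.41 in XY and -0.75 in XX gonads. The part of germ cells in the Dmrt1 difference was not tested.

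Nr0b1, the X-linked receptor that represses SF1, held 11.9, 13.95 and 13.5 CPM in XY control and 10.9, 7.48 and 8.25 CPM in XY KO gonads at E11.5. All XY KO libraries were lower, by -0.56 ± 0.16 (FDR 0.029), a call lost without XY control replicate 3 or XY KO replicate 2 or 3 (FDR up to 0.119) and in the 6 XY libraries alone (FDR 0.105). XX libraries moved from 15.5 to 17.1 CPM in controls to 9.73 to 11.8 CPM in KO gonads, a change of -0.55 ± 0.15 with FDR 0.0652 in edgeR, 0.0172 in DESeq2 and 0.0382 in a fit of these 6 libraries alone. At E12.5 neither change was called, with 0.53 ± 0.26 in XY (FDR 0.182) and -0.25 ± 0.25 in XX gonads (FDR 0.556). XX controls were above XY controls (15.5 to 26.2 against 8.60 to 13.2 CPM; 0.81 ± 0.26, FDR 0.0337). That call was lost without any 1 library other than XX control replicate 2, with FDR up to 0.152.

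Emx2, a homeodomain factor that the ridge epithelium needs, did not change with the deletion beyond its spread at E11.5. XY controls held 166, 190.0 and 170.2 CPM and XY KO gonads 195, 146 and 189.9 CPM, a difference of 0.01 with a 95% interval from -0.28 to 0.31. At E12.5 XY control libraries were at 68.2, 94.4 and 102 CPM and XY KO libraries at 264, 266 and 245 CPM. XX control libraries were at 306, 260.3 and 332 CPM and XX KO libraries at 260.1, 254 and 291 CPM. XY controls stood below all other libraries. Emx2 was 2.93-fold higher in XY KO than in XY control gonads (log2 1.55 ± 0.15, FDR 3.47e-06). XY KO differed from XX control gonads by -0.21, with a 95% interval from -0.52 to 0.10. Emx2os, an antisense gene that shares 264 exonic bases with Emx2, also rose in XY KO gonads (12.1 to 20.4 CPM in XY control, 61.5 to 68.3 CPM in XY KO; log2 2.03 ± 0.24, FDR 2.04e-05). Since the strand setting of the counting is not given in the sources used here, reads of both genes may not be told apart.

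Lhx9, a LIM homeodomain factor of the ridge and of ovarian and interstitial progenitors, spanned 123 to 137 CPM in XY control and 147 to 169 CPM in XY KO gonads at E11.5, without a call (0.27 ± 0.13, FDR 0.184). At E12.5 it read 195, 239 and 259 CPM in XY control gonads and 375, 372 and 308 CPM in XY KO gonads, 1.52-fold higher (log2 0.61 ± 0.13, FDR 0.00296). In XX gonads it went the other way, from 422, 396 and 422 CPM in controls to 325, 305 and 331 CPM in KO gonads, with no overlap and no call (-0.37 ± 0.13, FDR 0.102 in edgeR and 0.0367 in DESeq2). The 2 changes differed by 0.97 ± 0.18 (FDR 0.0019).

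Lhx2, a LIM homeodomain factor related to Lhx9, was scarce. At E11.5 XY KO libraries held 4.70, 0.923 and 0.872 CPM, from 127, 18 and 17 reads, and XY control libraries 0.551, 0.446 and 1.14 CPM. XX control libraries had 5, 12 and 4 reads and XX KO libraries 28, 35 and 13 reads. Replicate 1 of XY KO stood apart, and without it the difference from XX control gonads fell from 2.91 (FDR 0.019) to 1.60 (FDR 0.0976) and the difference from XY control gonads from 1.66 (FDR 0.0858, not called) to 0.35. The call against XX control gonads was also lost without any 1 XX control library. At E12.5 Lhx2 rose from 0.697, 0.390 and 0.521 CPM in XY control gonads to 0.935, 1.82 and 1.39 CPM in XY KO gonads (log2 1.35 ± 0.44, FDR 0.0431). The groups did not overlap, but the call was lost without any 1 library other than XY KO replicate 1 (FDR up to 0.169) and in the edgeR 4 form of the test (FDR 0.0714). XX control and XX KO gonads held 1.13 to 3.28 and 1.84 to 2.58 CPM.

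Genes of the coelomic epithelium and surface are known to be expressed beside these homeodomain genes. At E12.5, 3 of 7 tested list genes were called in XY KO against XY control gonads, all higher (Podxl 1.99, Krt18 1.20 and Upk3b 0.76 in log2). The median over the list was 0.76, against -0.01 over all genes. The list summed to 623.5 to 676.8 CPM in XY control and 1693 to 1728 CPM in XY KO gonads, and to 1533 to 1864 CPM in both XX groups. At E11.5, 4 of 8 were called in XY and 3 of 8 in XX gonads, all higher in KO, among them Bnc1, Krt19 and Upk3b in each sex. The part of surface epithelium in the Emx2, Lhx9 and Lhx2 values was not tested.

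Tcf21, a basic helix-loop-helix factor of gonadal mesenchyme, was higher in KO gonads of both sexes at E11.5. XX controls gave 156, 142 and 133 CPM and XX KO gonads 225, 263 and 282 CPM, 1.79-fold higher (log2 0.84 ± 0.12, FDR 0.00125, called without any 1 library). XY controls gave 167, 191 and 229 CPM and XY KO gonads 240.1, 256 and 268 CPM (0.38 ± 0.12, FDR 0.0447). The XY call was kept without XY control replicate 3 and lost without any other one of the 6 libraries, with FDR up to 0.172. It was also lost with unscaled library sizes (FDR 0.0648) and in the 6 XY libraries alone (FDR 0.101). At E12.5 the sexes parted. XX controls held 82.4, 62.9 and 116 CPM and XX KO gonads 161, 136 and 206 CPM (0.95 ± 0.20, FDR 0.0171), whereas XY controls held 226, 227 and 219 CPM and XY KO gonads 125, 143 and 156 CPM (-0.66 ± 0.19, FDR 0.025). Neither pair of groups overlapped, and the KO groups of the 2 sexes lay between the controls. The XX call was lost without XX control replicate 1 or 2 or XX KO replicate 3 (FDR up to 0.0845) and in the 6 XX libraries alone (FDR 0.0586), and the XY call without replicate 1 or 2 of either XY group (FDR up to 0.0946). The changes differed by -1.61 ± 0.28 (FDR 0.00112), in every fit without 1 library.

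Nr2f2, an orphan nuclear receptor of interstitial, endothelial and mesonephric cells, was among the most abundant members and was called in neither KO comparison at either stage. At E11.5 all 12 libraries lay between 517 and 701 CPM. At E12.5 XY control libraries held 286, 276 and 359 CPM, XY KO libraries 231, 278 and 319.5 CPM, XX control libraries 183, 131 and 205 CPM and XX KO libraries 193, 288 and 225 CPM. The deletion went with -0.15 (95% interval -0.56 to 0.25) in XY and with 0.44 (0.04 to 0.85, FDR 0.177) in XX gonads. Between control sexes Nr2f2 was 1.78-fold lower in XX (-0.83 ± 0.19, FDR 0.00485). B130024G19Rik, which shares 643 exonic bases with Nr2f2 on the other strand, was not called in any of these comparisons.

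Interstitial stroma genes were read beside Tcf21. At E12.5, 6 of its 9 genes were called in XX KO against XX control gonads, all higher, among them Lum 2.38, Gli1 2.1, Col1a1 1.57 and Dcn 1.56 in log2, with a list median of 0.80. In XY gonads 4 of 9 were called, with the hedgehog target genes Ptch1 (-2.28) and Gli1 (-2.02) and Wnt5a lower and Lum (2.17) higher, a list median of -0.02, and overlapping sums. The list summed to 991 to 1454 CPM in XX control, 2054 to 3220.5 CPM in XX KO, 2157 to 3575 CPM in XY control and 2387 to 3021 CPM in XY KO gonads. All 5 fetal Leydig cell genes were called lower in XY KO gonads at E12.5. At E11.5 the stroma list had 2 genes called higher in XY and 1 in XX gonads, Pdgfra in both. Of 8 tested tubule and duct genes of the mesonephros, 6 were called higher and 1 lower in XY KO gonads at E12.5, and 3 higher in XX KO gonads. Gonads had been isolated at that stage. Between control sexes 4 were called higher in XX gonads at E12.5, among them Calb1 (6.01), Pax8 (1.70) and Gata3 (1.66), and Lhx1 (-1.74) was lower. The list summed to 30.6 to 36.8 CPM in XY control, 60.3 to 122.9 CPM in XY KO, 70.9 to 78.7 CPM in XX control and 99.3 to 156.5 CPM in XX KO gonads, and Cdh16, Wnt9b and Pax8 were called higher in both sexes. At E11.5 the list median was -0.38 in XY gonads, with Pax8 (-0.67) called lower of 9 tested, and -0.46 in XX gonads, where edgeR called none (5 at an unadjusted p under 0.05, 1 by DESeq2). The part of stroma and of mesonephric tissue in the member values was not tested.

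Genes listed as activators or partners of Sox9 were measured in the same libraries. Of 10 listed activators and partners, 5 were called lower in XY KO gonads at E11.5, Ptgds (-4.15) among them, with a list median of -0.66. Ptgds and Fgf9 are also listed among the Sertoli cell products below, so the counts of these lists are not independent. Sry read 3.77, 4.65 and 4.70 CPM in XY control and 1.19, 0.513 and 1.59 CPM in XY KO gonads (log2 -1.99 ± 0.37, FDR 0.0046). Nr5a1 read 106, 131 and 137 CPM and then 64.5, 44.0 and 52.5 CPM (-1.21 ± 0.15, FDR 0.00028), and Gata4, a zinc finger factor of the ridge, changed by -0.73 ± 0.13 (FDR 0.00332). Wt1, a zinc finger factor that the ridge needs, gave -0.10 ± 0.10 without a call. Nr5a1, Gata4 and Wt1 are also 3 of the 10 other ridge factors listed, and Nr5a1 and Gata4 were the 2 of these called. At E12.5, 6 of 10 activators and partners were called, with Sry (3.99), Fgfr2 and Wt1 (0.86) higher in XY KO gonads and Ptgds, Fgf9 and Nr5a1 (-0.71) lower. In XX gonads 1 activator, Gadd45g, was called at E11.5 (-0.89) and none at E12.5 by edgeR (2 at an unadjusted p under 0.05, 1 by DESeq2).

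Sertoli cell products known or likely to follow Sox9 fell with the SoxE genes. In XY KO gonads 11 of 13 tested were called lower at E11.5 and 14 of 14 at E12.5, with list medians of -2.62 and -4.31. Amh, the hormone that removes the Müllerian duct, read 5.33, 29.8 and 62.4 CPM in XY control gonads at E11.5 and 0.741, 0.769 and 1.64 CPM in XY KO gonads. The 3 XY control pools thus spread widely in Amh, and did so far less in Sox9 (55.0 to 76.3 CPM). At E12.5 Amh changed by -8.63 ± 0.40 (FDR 4.98e-09). None of these products was called in XX gonads by edgeR at E11.5 (2 at an unadjusted p under 0.05, 1 by DESeq2) or at E12.5 (3 and 2). Of 11 genes of the ovarian pathway, 9 were called higher in XY KO gonads at E12.5 (list median 2.16), among them Fst (6.77), which encodes follistatin, and Foxl2 (4.92), a forkhead factor of granulosa cells. At E11.5, 2 were called higher, Foxl2 (0.97 ± 0.28) and Bmp2 (0.54), and 2 lower, Runx1 (-0.88) and Wnt4 (-0.38). In XX KO gonads Fst (-1.29) and Irx3 (-0.86) were called lower at E11.5 (list median -0.32, 5 genes by DESeq2), and none at E12.5 by edgeR (4 at an unadjusted p under 0.05, 3 by DESeq2).

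The KO sexes were then compared with each other. No member was called in XX KO against XY KO gonads by edgeR at E11.5 (0.0844% of all genes) or at E12.5 (0.153%). At an unadjusted p under 0.05 in edgeR there was 1 member at E11.5, beside 2291 of all 14217 genes. At E12.5 there were 2 members, beside 2752 of 14348 genes. DESeq2 called none at E11.5 and 2 at E12.5, and its share over all genes is not given here. The 2 members at E12.5 were Sox9 and Sox10 in both methods, described above. For the rest the 95% intervals at E12.5 ran from -0.40 to 0.14 for Lhx9, from -0.26 to 0.37 for Emx2, from -0.40 to 0.48 for Dmrt1 and from -0.25 to 0.78 for Sox8. They ran from -0.17 to 0.66 for Tcf21, from -0.51 to 0.58 for Nr0b1 and from -0.64 to 0.17 for Nr2f2. Lhx2 had the widest of these 8, from -0.085 to 1.53, and all 3 XX KO libraries were above the XY KO libraries.

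XY KO and XX control gonads were compared last. At E11.5 edgeR called 4 members, against 9.09% of all genes: Tcf21 (0.83 ± 0.12) and Lhx2 higher, Dmrt1 (-1.20 ± 0.20) and Nr0b1 (-0.86 ± 0.16) lower. DESeq2 also called Emx2, lower (-0.43, FDR 0.0345). At E12.5 Sox9 and Sox10 were called, both higher in XY KO gonads (5.03% of all genes). Tcf21 (0.70 ± 0.20, FDR 0.0536) and Nr2f2 (0.68 ± 0.19, FDR 0.057) were above the XX controls in every library and were not called by edgeR. Both were called by DESeq2 (FDR 0.0107 and 0.0133) and by edgeR without a filter on low counts (0.0452 and 0.0446).

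Likeness across the 12 libraries of a stage is given as Pearson's r of log2(CPM + 2) with no test, since libraries of 1 genotype share their level. The members were named as bipotential gonad or Sertoli cell factors with earlier results known. Sets among them are therefore a description and no independent finding. At E12.5 Sox9, Sox8 and Sox10 had r of 0.94 to 0.98 with each other, Emx2 had -0.94, -0.98 and -0.97 with them, and Emx2 and Lhx9 had 0.92. At E11.5 the highest r among members were 0.90 for Sox8 and Sox10, 0.87 for Sox8 and Sox9 and 0.83 for Dmrt1 and Nr0b1, and the lowest was -0.85 for Sox9 and Lhx9. The genes most like Sox9 over all genes tested were Cbln4 (0.96), Cited4 (0.93), Fzd9 (0.93), Hsd17b3 (0.92) and Ctrb1 (0.92) at E11.5 and Cyp26b1 (0.99), Gem (0.99), Rerg (0.99), Lefty2 (0.98) and Synj2 (0.98) at E12.5. Sox10 was closest to Dhh (0.998), Amh (0.997) and Tesc (0.997) at E12.5 and to Cadps, Stmn3 and Ckb at E11.5 (each 0.93), and Sox8 to Gjb2, Miox and Khdc3 (each 0.99 or above) at E12.5 and to Zfp488, Col9a3 and Siglece (0.92 to 0.94) at E11.5.

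For the other members the 3 closest genes were the following. Dmrt1 was most like Trh, Tst and Atp2b3 (0.94 to 0.96) at E11.5 and Nceh1, Mthfd2 and Msantd3 (0.93 to 0.94) at E12.5. Nr0b1 was most like Sybu, Runx1 and Tgm3 (0.94 to 0.96) at E11.5 and Mid1ip1, Gm10638 and Ccdc61 (0.89 to 0.91) at E12.5. Lhx9 was closest to Prkd1, Txnip and Dab1 (0.87 to 0.91), and at E12.5 to Dmrta1, Pnlip and Zfp612 (0.96 to 0.98). Lhx2 had its highest values with C1qtnf3, Dnm3 and Asic1 (0.81 to 0.85) and at E12.5 with Aire, Cpne5 and Irx2 (0.94 to 0.95). Emx2 was followed by Zfp30, Zfp385b and Gbp7 (0.90 to 0.91) and at E12.5 by D630039A03Rik, Lypd6 and Adm (0.98 to 0.99). Tcf21 went with Colgalt1, L3hypdh and Tm4sf5 (0.95 to 0.96) and at E12.5 with Lsp1, Gusb and Csrp1 (each 0.96), and Nr2f2 with Plagl2, Vps36 and Magee1 (0.91 to 0.93) and at E12.5 with Cdh11, Efnb2 and Zfp9 (0.93 to 0.97).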

How the data were processed

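Polyadenylated RNA was sequenced as paired reads from 24 pools of mouse gonads. The authors aligned reads to mm10 with Subread and counted them per gene with featureCounts; the submitters' processing notes name these tools and edgeR without versions. Which annotation and strand option were used in counting, and how multi-mapped reads were handled, is not given in the sources used here. The deposited values used here are raw counts per gene and library, with gene symbols in the tables. Another 12 columns of per-sample values, from Foxl2 mutants, were left out, as the column names give no tissue.

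Genes with at least 1 CPM in at least 2 of 12 libraries were tested in edgeR 4.0.16 (R 4.3.3) with TMM scaling, robust quasi-likelihood fits and 1 mean per genotype, each stage alone, as 12 libraries with 3 per genotype. The pairwise contrasts and the difference between the XY and XX changes were tested and adjusted by Benjamini-Hochberg over all tested genes. With the deletion at E11.5, 4106 of 14217 genes in XY and 2228 in XX gonads had an unadjusted p under 0.05 in edgeR. At E12.5 these were 4558 and 3385 of 14348 genes, to be read beside the list counts at that threshold. CPM uses TMM-scaled totals of tested genes. Log2 fold changes carry their SE or a 95% interval. Exon lengths, coordinates and 3′ UTRs came from GENCODE M21 (GRCm38, the build named mm10), the longest 3′ UTR per gene, and microRNAs from RefSeq. Replicates differed by more than sampling noise in every group. The procedure was tested on simulated counts.

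The 10 members are described throughout. From each gene list, called genes were named with the largest change first, at most 4 per list and comparison, and Sry, Foxl2, Amh, Wt1, Nr5a1, Gata4, Mir17hg, Xist and Ddx3y were named in any case. Further genes (Foxd3, Emx2os, B130024G19Rik and single list genes) were chosen after their values were seen. Some listed genes are not reported here and were left out of their lists' counts, medians and sums, whatever their values. The members and lists were chosen with earlier results of these data known. Alternatives were RLE size factors, unscaled library sizes, DESeq2 1.42.0, the edgeR 4 form of the test, no filter, a stricter filter, a replicate block, the libraries of a comparison alone, and leaving out each library.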

Additional observations from a re-analysis of the deposited data

Results flagged for a closer look

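For 6 members the change with the deletion differed between XY and XX gonads at E12.5, by the test of the difference itself in edgeR (12.9% of all genes were called in that test). The difference, XY minus XX, was -5.61 for Sox10, -4.49 for Sox8 and -3.25 for Sox9. For Tcf21 it was -1.61, with all 3 XY KO libraries below the XY controls and all 3 XX KO libraries above the XX controls. For Emx2 it was 1.71 and for Lhx9 0.97, where XY KO libraries were above and XX KO libraries below their controls for Lhx9, and XX libraries overlapped for Emx2. The XX values for Sox10 rest on 0 to 13 reads a library. At E11.5 the same test called no member (0.0352% of all genes). There, 3 members had an unadjusted p under 0.05 in edgeR, beside 1825 of 14217 genes. DESeq2 called 1, with no share over all genes given here.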

How the results depend on the processing

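Over 1765 values of single members under the alternatives, 1629 kept their direction and side of the threshold, 55 kept their direction and lost the call, 31 gained one and 50 changed direction. With RLE size factors all 120 kept both. The counts of members called moved by over 1.5 times in the following cases, and the cause was not tested. Shares of all genes called under the alternatives are not given here. A general shift in calls can therefore not be told apart from one of the members. With DESeq2 the count was 3 between control sexes and 1 for the difference between the changes at E11.5. At E12.5 it was 2 in XX KO against XX control, 2 in XX KO against XY KO and 4 in XY KO against XX control gonads. Fits of the libraries of a comparison alone, with fewer samples, gave 3 in XY KO against XY control and 3 between control sexes at E11.5, and 0 in XX KO against XX control gonads at E12.5. In XY KO against XX control gonads at E12.5 the count was 4 without a filter and 1 with 1 CPM in at least 6 libraries, a filter under which Sox10 is not tested.

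Replicate numbers were not found to pair samples: same-numbered libraries deviated with correlations from -0.30 to 0.45 (6 of 18 above 0.1) at E11.5 and from -0.51 to 0.39 (4 of 18) at E12.5. With a replicate block the count between control sexes at E11.5 was 2, and at E11.5 the change within XX gonads was -0.021 for Sox8 and -0.089 for Sox10. At E12.5 the block ended the calls of Lhx2 in XY KO against XY control (FDR 0.0539) and of Nr0b1 between control sexes (FDR 0.0524), and it called Tcf21 in XY KO against XX control (FDR 0.0298). Unscaled library sizes turned at E11.5 Emx2 in XY KO against XY control to -0.019 and Tcf21 in XX KO against XY KO to -0.033, and without a filter the difference between the changes of Nr0b1 at E11.5 was 0.015.

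Without 1 library the number of members called at E11.5 ranged from 2 to 4 in XY KO against XY control and 1 to 2 in XX KO against XX control gonads. It was 1 to 4 between control sexes, 0 to 1 in XX KO against XY KO and 3 to 4 in XY KO against XX control gonads. At E12.5 it was 6 to 7 in XY KO against XY control gonads, where all libraries gave 8, and 8 to 9 between control sexes. It was 0 to 1 in XX KO against XX control, 0 to 2 in XX KO against XY KO and 0 to 3 in XY KO against XX control gonads. Log2 changes that crossed 0 at E11.5 were, in XY KO against XY control, Emx2 (-0.062 to 0.13); in XX KO against XX control, Sox8 (-0.60 to 0.36), Sox10 (-2.51 to 1.00) and Lhx9 (-0.033 to 0.27). In XX KO against XY KO they were Sox8 (-0.81 to 0.16), Lhx2 (-1.44 to 0.25) and Tcf21 (-0.071 to 0.097), and in XY KO against XX control Sox9 (-0.18 to 0.13), Sox8 (-0.021 to 0.46) and Lhx9 (-0.19 to 0.049). For the difference between the changes they were Sox10 (-1.92 to 1.59), Dmrt1 (-0.36 to 0.056), Nr0b1 (-0.19 to 0.097), Lhx2 (-1.49 to 0.30) and Nr2f2 (-0.11 to 0.034). At E12.5 they were Sox8 (-0.22 to 0.18) and Lhx2 (-0.44 to 0.20) in XX KO against XX control, and Dmrt1 (-0.090 to 0.195), Nr0b1 (-0.18 to 0.29) and Emx2 (-0.0025 to 0.093) in XX KO against XY KO gonads. None of these was called with all libraries. Depth limits Sox10 in XX KO gonads at E11.5 and in XX gonads at E12.5, and also Lhx2, where a library may hold fewer than 20 reads.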

Other observations

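Other cell types were followed through lists of marker genes. Of 6 macrophage genes, Csf1r and Fcgr1 were called lower in KO gonads of both sexes at E11.5 (Csf1r -1.09 in XY and -1.14 in XX gonads on the log2 scale, edgeR), and the list summed to 83.0 to 112.8 CPM in XY control, 50.0 to 76.8 CPM in XY KO, 93.4 to 102 CPM in XX control and 49.4 to 68.6 CPM in XX KO gonads. Of 3 tested fetal Leydig cell genes, 1 was called in each KO comparison at E11.5. This was Cyp11a1, which starts steroid synthesis, lower in XY (-2.48) and in XX KO gonads (-2.63). The list median was -0.96 in XY and -0.29 in XX gonads. Of 8 endothelial genes, Kdr (0.55) and Pecam1 (0.50) were called higher in XY KO gonads at E12.5, and none was called in the KO comparisons at E11.5 by edgeR (1 in XY and 2 in XX gonads at an unadjusted p under 0.05, and 1 and 0 by DESeq2). No erythroid gene was called in either KO comparison at either stage by edgeR. At an unadjusted p under 0.05 there were 2 in XY and 1 in XX gonads at E11.5, none of them called by DESeq2, and 1 in XY and 3 in XX gonads at E12.5, where DESeq2 called 2 in XX gonads. The erythroid list ranged from 1208 to 4254 CPM among the XX KO libraries at E11.5.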
